A study of Mus musculus with 6 samples.

Results

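The miRNAs of the imprinted Dlk1-Dio3 domain on mouse chromosome 12 were examined in embryonic mouse cardiomyocytes (EMCMs). Members were found by name. A miRNA was a member when the number in its name was that of 1 of 53 listed miRNAs of the domain, with any letter, arm or asterisk. Of 689 miRNAs with a mean abundance, 93 (13.5%) were members, and they came from 50 of the 53 listed names. The names miR-654, miR-758 and miR-3071 had no entry.

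The study cultured EMCMs from E16.5 embryos on flexible collagen-coated membranes and sequenced their small RNA. There were 3 static control cultures and 3 cultures stretched by 16% at 1 Hz, both kept for 24 hours. The labels give Swiss Webster as the strain and the methods CD1, and the methods give 6 samples per group where the labels give 3. The cells were wild type per the methods, and nothing in the sources used here says which cultures shared a dissection.

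The values analysed were the authors' mean abundance of each miRNA over all libraries, on a log2 scale. Levels of single cultures were not analysed here, so the cells are described as a whole, without a spread between cultures and without a comparison of stretched with static cells. For reading, each value was converted to its share of the summed mean abundance of all 689 miRNAs, in ppm (parts per 1000000). A share of this kind ranks miRNAs by how often they were read. How well each small RNA is ligated and amplified was not calibrated, so a ratio of 2 shares is a ratio of reads and not of molecules. The number of reads behind a value is not given. The lowest values lie on a regular grid, though. When each value is read as the mean of the log2 abundances of both groups, the product of the group abundances is within 0.1 of a whole multiple of 1 step for 48 of the 50 lowest values (96%). If this step is 1 read in each group, 59 members rest on at least 100 reads per group and 9 members on fewer than 10.

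The Dlk1-Dio3 domain is imprinted, which means that its genes are read mainly from the chromosome of 1 parent. The protein-coding genes Dlk1, Rtl1 and Dio3 are active on the paternal chromosome, and the noncoding RNAs Meg3, Rian and Mirg and the miRNAs on the maternal one. The miRNAs lie in one direction along a chain of long noncoding transcripts, and each is cut from a hairpin by Drosha and Dicer. A hairpin can give a mature miRNA from its 5p arm and another from its 3p arm. The seed, bases 2 to 8 of the mature miRNA, pairs with target mRNAs. The domain is known for its part in fetal and placental growth, in muscle and in the brain, and its RNAs are abundant in embryos.

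The mature sequences of the 10 most abundant members are shown because they carry nearly all of the signal described below. They are RefSeq sequences for GRCm38.p6, written 5′ to 3′ with the seed in capitals. RefSeq gave a sequence for 86 of the 93 members.
miR-127: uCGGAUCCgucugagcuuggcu
miR-541: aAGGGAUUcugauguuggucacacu
miR-411: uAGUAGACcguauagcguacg
miR-410: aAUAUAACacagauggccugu
miR-381: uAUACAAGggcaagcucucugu
miR-434-3p: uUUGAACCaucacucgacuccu
miR-409-3p: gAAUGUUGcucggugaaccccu
miR-300: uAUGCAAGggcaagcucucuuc
miR-434-5p: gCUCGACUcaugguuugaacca
miR-341: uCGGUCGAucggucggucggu
All 10 seeds differ from one another. miR-300 and miR-381 come from neighbouring hairpins and share a run of 16 bases. Only tags of at least 18 nt were counted, but whether some were counted for the wrong miRNA was not tested.

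A single miRNA made up most of the Dlk1-Dio3 abundance in EMCMs. Together the members, 13.5% of the miRNAs, had 10.4% of the summed mean abundance of all miRNAs. miR-127 alone had 71876 ppm, or 7.19% of all miRNAs and 69.2% of the members. It ranked at position 5 of the 689 miRNAs, between miR-27b at 74938 ppm and miR-191 at 36564 ppm. The other members together had 3.20% of the sum. miR-127 is the miRNA of the domain best known for its pairing with Rtl1 mRNA, which is read from the opposite strand of the same stretch of DNA.

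Below miR-127 there was a drop of about 3 on the log2 scale. miR-127 had a log2 mean abundance of -3.80, and the second member, miR-541, had -6.81. As shares, miR-541 had 8941 ppm, miR-411 had 8107 and miR-410 had 4638. With miR-127, these 4 miRNAs held 90.1% of the members' abundance. miR-541 and miR-411 ranked within the first 20 miRNAs of the cells.

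The next 3 members lay close together. miR-381 had 1880 ppm, miR-434-3p had 1818 and miR-409-3p had 1701. miR-300 followed with 856, then miR-434-5p with 566 and miR-341 with 522. The first 10 members held 97.2% of the members' abundance.

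The members ranked from 11 to 20 were between 75.6 and 486 ppm. They were miR-409-5p with 486, miR-379 with 315, miR-431 with 246, miR-134 with 242 and miR-433 with 109 ppm. Lower still were miR-666-5p with 96.8, miR-382 with 93.7, miR-673-3p with 78.7, miR-136* with 77.9 and miR-1193-3p with 75.6 ppm. Among these, miR-134 is known as a dendritic miRNA of neurons that represses Limk1, and miR-431 is known in muscle as a repressor of Pax7, the transcription factor of satellite cells. miR-379 gives its name to the long miRNA array at the far end of the domain, whose transcription Mef2 factors activate in neurons. The first 20 members held 98.9% of the members' abundance, and the other 73 shared 1.08%.

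**Figure D1:**
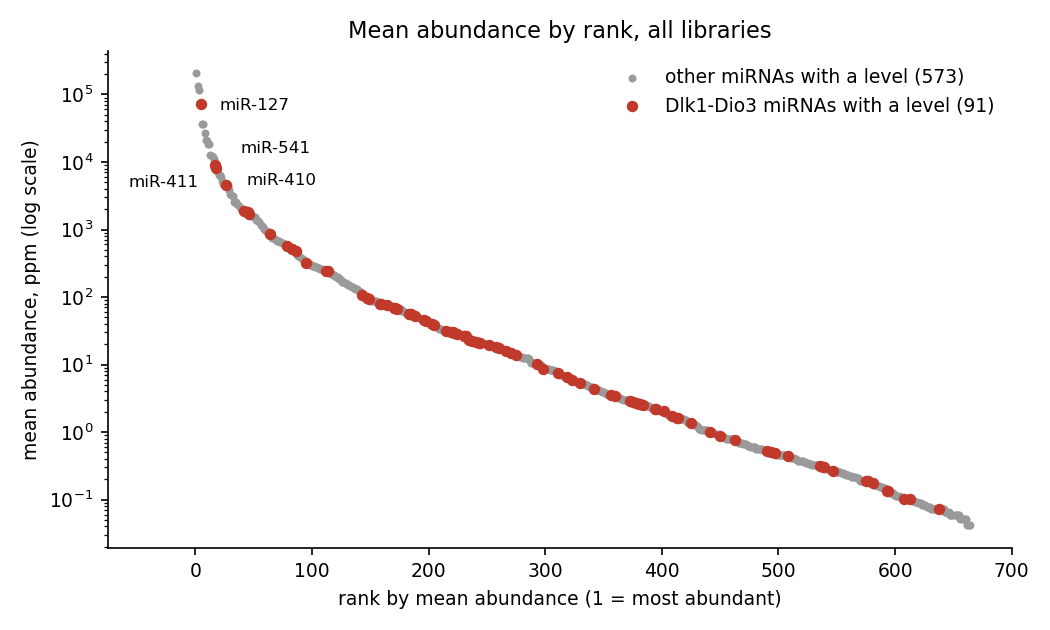
Mean abundance in ppm (log scale) of each miRNA with a level against its rank, over all libraries; red points are Dlk1-Dio3 miRNAs and grey points all others. miR-127 stands among the first 5 miRNAs at 71876 ppm, and the 91 members with a level run down to rank 638 at 0.0723 ppm.

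The members were spread over the whole range of the miRNAs in these cells. Among the 10 most abundant miRNAs, 1 was a member, and among the first 100 there were 12. At 10000 ppm or more there were 1 member (1.08% of the 93) and 15 of the 596 other miRNAs (2.52%). At 1000 ppm or more there were 7 members (7.53%) and 52 others (8.72%), and at 100 ppm or more 15 members (16.1%) and 131 others (21.98%). At 10 ppm or more there were 51 members (54.8%) and 243 others (40.8%), and at 1 ppm or more 73 members (78.5%) and 369 others (61.9%). The median level was 17.96 ppm for the 91 members with a level, against 4.25 ppm for the 573 other miRNAs with a level. The members' share was thus below that of the other miRNAs at the limits from 100 ppm up and above it at 10 and 1 ppm, and none of these gaps was tested. Near the median stood miR-329* at 17.96, miR-376a at 17.5 and miR-377 at 16.1 ppm.

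At the low end, 18 members with a level were under 1 ppm. The lowest was miR-493*, at 0.0723 ppm. miR-3070b-3p had 0.102, miR-370* had 0.103 and miR-544-5p had 0.132 ppm. By the grid of the lowest values, miR-493* would rest on about 2.45 reads per group, so levels of this size are not resolved from one another. For 2 members, miR-496* and miR-376c*, the value lay below -30 on the log2 scale (-35.9 and -36.2). The table has no value between -24.5 and -35.6, and 25 of the 689 miRNAs lay below this gap. How a group without reads was handled is not given in the sources used here, so no level is stated for these 25.

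The hairpins of the members span 184.3 kb of chromosome 12 in the GRCm38 annotation, from Mir770 in an exon of Meg3 to Mir3072 in an exon of Mirg. The coordinates come from the GENCODE and RefSeq annotation of GRCm38, since the build used for mapping the reads is not given in the sources used here. All lie on the plus strand between Dlk1 (chr12:109452823-109463336) and Dio3 (chr12:110279068-110281097). Along this line the hairpins were divided at Mir431, Mir136 and Mir379 into 4 segments.

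The short segment opposite Rtl1 held most of the abundance. Its 5 hairpins, Mir431, Mir433, Mir127, Mir434 and Mir136, lie within 4.94 kb (chr12:109590447-109595388) on the strand opposite to an exon of Rtl1, a gene derived from a retrotransposon and needed for placental capillaries. They gave 72.0% of the members' abundance. Within the segment, miR-127 stood at 71876 ppm, and the more abundant arms of the other 4 hairpins were at 1818 for miR-434-3p, 246 for miR-431, 109 for miR-433 and 77.9 for miR-136*. The minor arms of the segment were also well read, with 22.7 ppm for miR-127*, 21.2 for miR-136, 21.1 for miR-431* and 14.8 for miR-433*, and the lowest of its 10 members was above the median of the other miRNAs. Without miR-127, the segment had 9.06% of what remained.

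The long array from Mir379 onward held most of the hairpins. Its 35 hairpins lie within 38.9 kb (chr12:109709060-109747960) and gave 27.3% of the members' abundance, or 88.6% without miR-127. Mirg, a noncoding RNA of the domain, covers 13 of them, 9 in exons and 4 in introns. The 22 others lie outside Meg3, Rtl1, Rian and Mirg as annotated. miR-541, in a Mirg intron, led the array at 8941 ppm. Most of its hairpins were far lower in their more abundant or only arm. miR-495 had 69.1, miR-329 had 68.5, miR-667 had 55.8 and miR-487b had 38.2 ppm. miR-543 had 31.8, miR-668 had 30.4 and miR-323-3p had 30.04 ppm. The lowest more abundant arm of the array was miR-544-3p, at 0.308 ppm, a ratio of 28991 between the top and the bottom hairpin. By the grid of the lowest values, miR-544-3p would rest on about 10.5 reads per group, so this ratio is not exact.

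Both remaining segments gave little of the members' abundance. The 8 hairpins before Mir431, from Mir770 to Mir3070b, gave 0.190% of the members' abundance, led by miR-673-3p at 78.7 ppm. In its other hairpins the more abundant or only arm was at 29.1 for miR-493, 21.4 for miR-337-3p and 5.27 for miR-540-3p. Lower were miR-665 at 3.39, miR-770-3p at 2.69, miR-3070a at 0.174 and miR-3070b-3p at 0.102. The 5p arms of Mir3070a and Mir3070b share a run of 23 bases in RefSeq. Mir341 and Mir370, in introns of the snoRNA host gene Rian, gave 0.538%, nearly all of it from miR-341 at 522 ppm. The median member was at 93.3 ppm opposite Rtl1, 17.9 in Rian, 17.5 in the array from Mir379 and 2.62 before Mir431.

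**Figure D2:**
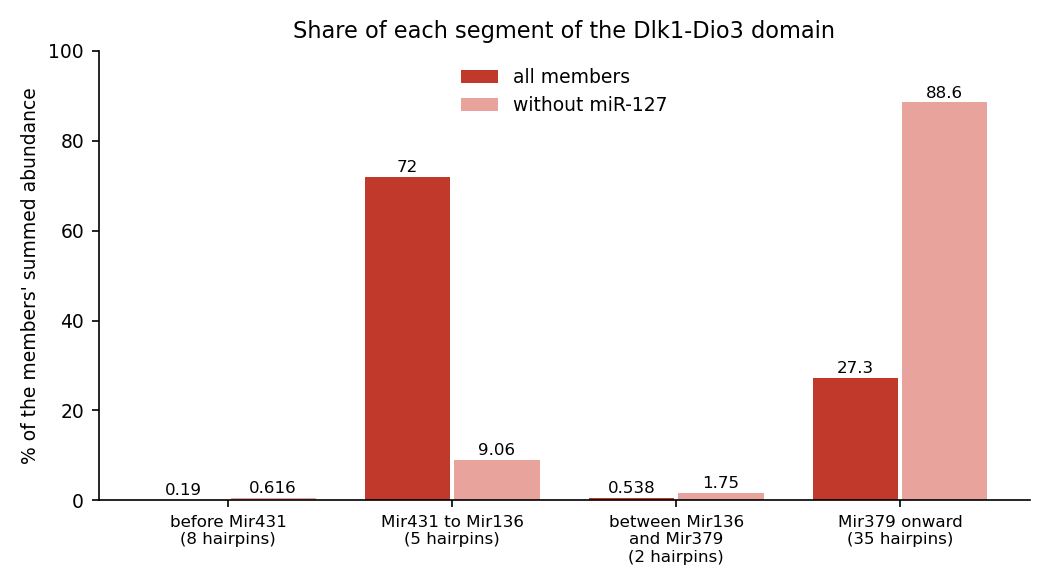
Share (%) of the members' summed mean abundance in each of 4 segments of the domain, in order along the chromosome; dark bars count all members and light bars leave out miR-127. The segment opposite Rtl1 falls from 72.0% to 9.06% without miR-127, and the array from Mir379 onward goes from 27.3% to 88.6%.

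Neighbouring hairpins of the array from Mir379 onward had very different levels. Neighbours were taken among the hairpins with an entry, and those without one, such as Mir453, were passed over. Taking the more abundant or only arm of each hairpin, the median ratio between neighbours was 4.49. Of 34 neighbouring pairs, 13 were at least 10-fold apart. The clearest run was at the far end of the array. Mir541 starts at chr12:109742409 and gave miR-541 at 8941 ppm, and Mir409 starts at 109743158 and gave miR-409-3p at 1701. Mir412, which starts at 109743289, gave miR-412-5p at 8.70 ppm, and Mir369, at 109743418, gave miR-369-3p at 55.2. The 3p arm of Mir412 had no entry, so its arms could not be compared. Mir410, at 109743715, returned to 4638 ppm for miR-410. These 5 hairpins lie side by side in Mirg, and their levels rose and fell over 3 orders of magnitude.

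A second run was near the start of the array. Mir379 at chr12:109709060 gave miR-379 at 315 ppm, and the next hairpin, Mir411 at 109710175, gave miR-411 at 8107. Mir299a, at 109710638, fell back to 56.6 ppm for miR-299*, and Mir380, at 109711803, to 6.46 for miR-380-3p. In the middle of the array, miR-494 had 1.71, miR-679-5p had 1.01 and miR-1193-3p had 75.6 ppm, from hairpins that start at 109715318, 109715577 and 109715671. Across the 35 hairpins, position along the array and level had a Spearman rho of -0.02. These hairpins share their libraries, so the rho is a description only.

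**Figure D3:**
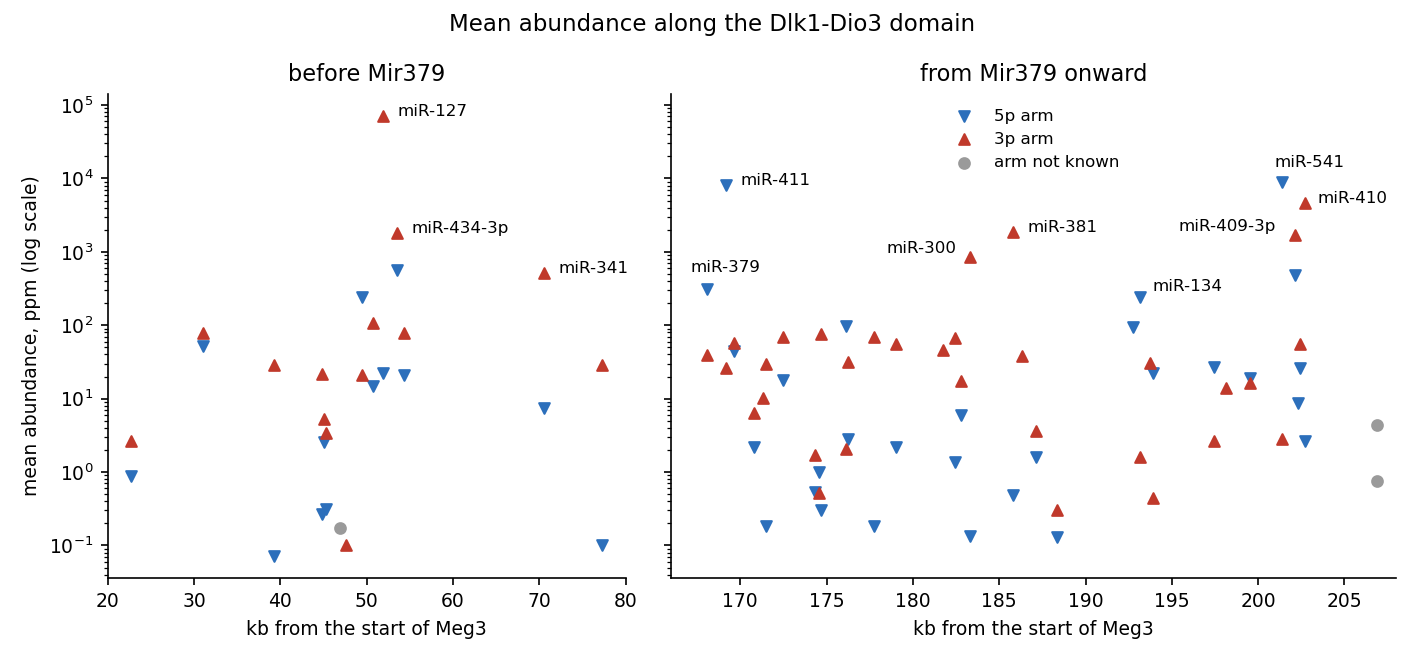
Mean abundance in ppm (log scale) of the 91 members with a level against the distance of their hairpin from the start of Meg3 in kb; blue triangles are 5p arms, red triangles 3p arms and grey circles members whose arm is not known. High and low miRNAs alternate along the array at the right, with miR-541 at 8941 and miR-412-5p at 8.70 ppm within 1 kb of each other, and miR-127 stands alone at the left at 71876.

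The miR-376 hairpins, Mir376c, Mir376b and Mir376a, stand next to one another and are known for A-to-I editing of their precursor. Their 3p arms had 46.1 ppm for miR-376c, 67.3 for miR-376b and 17.5 for miR-376a. Of the 5p arms, miR-376a* had 5.96 and miR-376b* had 1.38 ppm, and miR-376c* had no stated level. The 5p arms of Mir376b and Mir376c share a run of 18 bases, so short tags from one can be counted for the other.

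Most hairpins of the domain gave far more of one arm than of the other. Both arms were present in the table for 42 hairpins, and for 40 of these both had a level. The table itself names the arm for 30 members. Another 60 members have older names, in which an asterisk marks the minor strand and the arm is not given. For these the arm of the plain name came from a separate list, and the asterisked name was given the opposite arm. The 3p arm was the more abundant in 32 of the 42 hairpins and the 5p arm in 10. Over the 40 hairpins with both levels, the counts were 30 and 10. The median ratio between the arms was 10.9, with a range from 1.19 to 6347. Arms were at least 2-fold apart in 36 of the 40 hairpins, at least 10-fold in 22 and at least 100-fold in 12.

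Both arms are shown for Mir127 and Mir541, which had wide ratios, and for Mir377 and Mir299a, which had the smallest. Mir300 and Mir381 had wider ratios still and are not shown here. The sequences are from RefSeq, with seeds in capitals, so that strands read often can be set beside their partners.
miR-127: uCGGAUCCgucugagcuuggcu
miR-127*: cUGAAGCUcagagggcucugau
miR-541: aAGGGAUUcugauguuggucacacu
miR-541*: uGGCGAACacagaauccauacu
miR-377: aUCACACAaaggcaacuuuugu
miR-377*: aGAGGUUGcccuuggugaauuc
miR-299: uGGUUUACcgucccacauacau
miR-299*: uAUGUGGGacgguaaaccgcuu
The first base of the favoured strand is U for miR-127, with C for miR-127*, and A for miR-541, with U for miR-541*. Both strands of Mir377 begin with A and both of Mir299a with U.

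The 5 hairpins with the widest difference were those of miR-300, miR-381, miR-541, miR-127 and miR-410. In Mir300, miR-300 had 856 ppm and miR-300* had 0.135, a ratio of 6347. In Mir381, miR-381 had 1880 and miR-381* had 0.486, a ratio of 3864. miR-541 stood at 8941 against 2.80 for miR-541*, a ratio of 3194 and the widest with the 5p arm ahead. miR-127 was at 71876 against 22.7 for miR-127*, a ratio of 3165. miR-410 had 4638 and miR-410* had 2.62, a ratio of 1768. The minor arms of Mir300 and Mir381 would rest on about 4.58 and 16.51 reads per group by the grid of the lowest values, so their ratios are the least exact of the 5.

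In 5 hairpins the arms were near each other. miR-377* exceeded miR-377 by a ratio of 1.19, with 19.3 and 16.1 ppm. miR-299* exceeded miR-299 by a ratio of 1.27, with 56.6 and 44.8 ppm. miR-673-3p exceeded miR-673-5p by 1.52, with 78.7 and 51.9 ppm. miR-679-5p exceeded miR-679-3p by 1.97, and miR-540-3p exceeded miR-540-5p by 2.08. Whether the arms of these hairpins differ beyond the spread between cultures cannot be said from a mean.

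The 5p arm was the more abundant in the hairpins of miR-541, miR-411, miR-134, miR-485, miR-666, miR-431, miR-154, miR-379, miR-679 and miR-377. The neighbours Mir379 and Mir411 both favoured the 5p arm, with ratios of 7.93 and 306. Among 29 pairs in which the table gives a plain name and an asterisked one, the asterisked strand was the more abundant in 3, miR-136, miR-299 and miR-377. For miR-136 it was ahead by a ratio of 3.68, with 77.9 ppm for miR-136* and 21.2 for miR-136. A single strand was present for 7 hairpins, as miR-1197, miR-3070a, miR-3070b-3p, miR-382, miR-412-5p, miR-487b and miR-668.

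**Figure D4:**
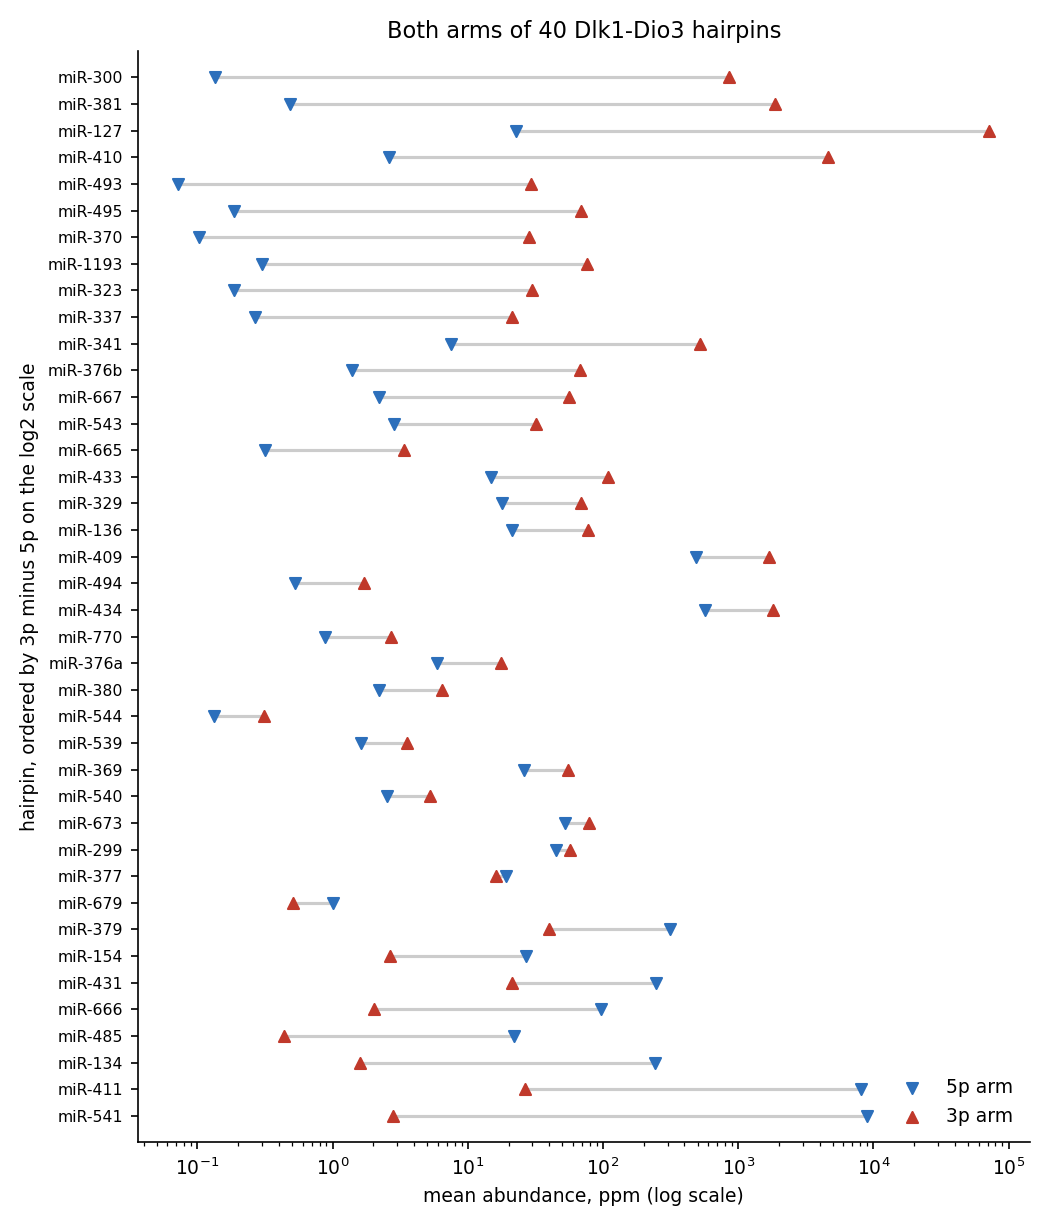
Mean abundance in ppm (log scale) of the 5p arm (blue) and the 3p arm (red) of the 40 hairpins with both arms assigned and a level for both, ordered by the difference between arms. The 3p arm is ahead in 30 of them and the 5p arm in 10, and the ratio runs from 1.19 for miR-377 to 6347 for miR-300.

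The more abundant arms began with U more often than their partners, and with A equally often. Over the 38 hairpins with both levels and both sequences, the more abundant arm began with U in 18, with A in 15, with G in 3 and with C in 2. The less abundant arm began with U in 9, with A in 15, with C in 9 and with G in 5. Argonaute proteins are known to hold a first base of U or A more tightly than G or C. The GC content of the mature miRNAs ran from 23.8% to 76.2%, and its Spearman rho with level was -0.0012 over the 84 members with a sequence and a level, which share their libraries and so give a description only.

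The domain gave a wide set of seeds. The 86 members with a sequence had 81 distinct seeds, and 5 seeds were shared by 10 members in pairs. These pairs are shown because members with 1 seed can pair with the same mRNAs.
miR-379: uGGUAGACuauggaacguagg
miR-1193-5p: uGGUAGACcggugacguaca
miR-1193-3p: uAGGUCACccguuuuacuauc
miR-370*: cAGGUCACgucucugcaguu
miR-379*: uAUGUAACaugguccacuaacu
miR-411*: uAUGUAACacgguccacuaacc
miR-410*: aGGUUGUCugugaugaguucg
miR-494*: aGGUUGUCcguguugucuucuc
miR-376b*: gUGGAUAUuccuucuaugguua
miR-376c*: gUGGAUAUuccuucuauguuua
In most of these pairs 1 member supplied the seed. With the seed GGUAGAC, miR-379 had 315 and miR-1193-5p 0.301 ppm. With AGGUCAC, miR-1193-3p had 75.6 and miR-370* 0.103 ppm. The seed AUGUAAC was the most even, with 39.7 ppm from miR-379* and 26.5 from miR-411*. With GGUUGUC, miR-410* had 2.62 and miR-494* 0.529 ppm. The seed UGGAUAU was read from miR-376b*, at 1.38 ppm, and miR-376c* had no stated level.

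A few seeds also occur in miRNAs encoded elsewhere. In the RefSeq set, 9 members shared their seed with a miRNA outside the domain, miR-411 and miR-410 among them. For 3 of these, an entry outside the domain with a level could be matched to the seed, in 2 cases through the older names miR-344d and miR-672, taken as the 3p and the 5p strand. With the seed AUAUAAC, miR-410 stood at 4638 ppm and miR-344d, encoded on chromosome 7, at 14.8. With ACACACC, miR-329 stood at 68.5 ppm and miR-362-3p, encoded on the X chromosome, at 16.3. With GAGGUUG, miR-377* stood at 19.3 ppm and miR-672, also from the X chromosome, at 16.7.

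Not every miRNA annotated in the interval is a member. GRCm38 places 61 miRNA genes between Dlk1 and Dio3, and 8 of them are outside the list. Mir3544, Mir432, Mir882, Mir299b, Mir453, Mir1247 and Mir1906-1 had no entry of their own. Mir1188 (chr12:109611822-109611941), next to Mir341, had miR-1188 at 0.639 and miR-1188* at 0.0937 ppm. Mir299b lies on the minus strand across Mir299a, and its 5p arm shares a run of 21 bases with that of Mir299a, so tags within this run do not tell them apart.

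Markers of the cell types that such cultures can hold were read in the same values. The 6 cardiomyocyte miRNAs all had an entry and summed to 15155 ppm, most of it miR-208b at 11788. miR-133a had 1869, miR-208a-3p had 750.0, miR-1a had 397, miR-499 had 215 and miR-133b had 10.7 ppm. The smooth muscle miRNAs miR-143 and miR-145 summed to 134654 ppm, but they were far apart. miR-143 had 133906 ppm and miR-145 had 697, which was below miR-208b, miR-133a and miR-208a-3p. The fibroblast miRNAs miR-199a and miR-214 summed to 4552 ppm. Of this, 1593 was miR-199a-3p, whose value is identical to that of miR-199b. The endothelial miR-126 summed to 4793 ppm, with miR-126-5p at 4663 and miR-126-3p at 130. The haematopoietic miR-142 and miR-223 summed to 81.4, the neuronal miR-9 to 18.4 with no entry for miR-124, the red blood cell miR-451 and miR-144 to 1.80, and the liver miR-122 had 0.603 ppm. The cells that carry the Dlk1-Dio3 miRNAs cannot be told apart in these bulk values, nor can fewer cells of a type from less RNA per cell, and the part of non-cardiomyocytes in the members' levels was not tested.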

How the data were processed

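Small RNA of EMCM cultures was sequenced by the study (TruSeq Small RNA libraries, HiSeq). Per the methods, tags of 18 to 30 nt were kept, mapped and added up per miRNA, and the authors compared the groups with edgeR. The submitters' processing notes name Bowtie2 and DESeq. The genome build and the normalization are not given in the sources used here.

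The mean abundance of each miRNA over stretched and static cultures is a log2 value in the deposited table, and this column alone was used. The deposited table also holds 4 columns of the authors' comparison of stretched with static cultures (fold changes on 2 scales, P values and FDRs), which were left out. No column of a single culture was used, so replicates could not be compared and the depth per sample is unknown.

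Each value was taken as 2 to its power and divided by the sum over 689 miRNAs, which was 0.995 before division. Values under -30 were given no level. Hairpins, hosts and sequences came from the GENCODE M21 and RefSeq annotation of GRCm38. The arm was read from the name for 30 members and not assigned for 3 (miR-3070a, miR-3072 and miR-3072*). For 60 members with older miRBase names it came from a separate list of the arms of plain names. No test was run. The grid step and the conversion to shares were tested on simulated counts, built as the mean of the log2 abundances of both groups. The simulation had no spread between cultures, and the other steps were not tested in this way. The alternatives were other members and denominators, other limits on low values and other arm names.

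The members, lists and limits were chosen with earlier results of these data known. Named were the 20 most abundant members, members without a level, the 5 hairpins with the widest and the 5 with the smallest difference between arms, members with shared seeds, listed names without an entry, other miRNAs of the interval and the markers. Other miRNAs named, such as miR-27b, miR-412-5p, miR-376a and miR-329, were chosen after their values were seen. Python 3.11.15, numpy 2.4.6, pandas 2.3.3 and matplotlib 3.10.9 were used.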

Additional observations from a re-analysis of the deposited data

How the results depend on the processing

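The share of the summed abundance held by the members, 10.4%, was also 10.4% when identical values were counted once, when miRNAs without a level were left out, and when members were found by exact name or by position, and became 3.44% without miR-127 in both sums. The log2 median of the members, -15.81 (-17.86 over all 689 miRNAs), was -15.77 without values under -30, -15.20 without values under -20 and -14.55 with the higher arm of each name only. The 3p arm was ahead in 32 of 42 hairpins, in 30 of 40 without values under -30, in 28 of 36 with arms at least 1 apart on the log2 scale, and in 12 of the 14 hairpins whose arms the table itself names. Without miR-127, the share of the members' abundance went from 72.0% to 9.06% opposite Rtl1, from 27.3% to 88.6% from Mir379 onward, from 0.538% to 1.75% in Rian and from 0.190% to 0.616% before Mir431. No paired analysis was possible because only a mean over all libraries was used. For the same reason no culture could be left out, no count test was run, and the spread between cultures is unknown. Members under 10 reads per group, if the grid step is 1 read, are limited by depth.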
